A study of Mus musculus with 14 samples.

Results

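The nuclear oxidative phosphorylation subunits are the proteins of respiratory complexes I to V that are encoded in the nucleus, and their transcripts were measured in naive mice and at 3 stages of EAE (experimental autoimmune encephalomyelitis), in which mice mount an immune response to myelin and which serves as a model of multiple sclerosis. Members were chosen by gene symbol alone: Ndufa, Ndufb, Ndufc, Ndufs or Ndufv followed by a number, Sdha to Sdhd, Cyc1, all names that start with Uqcr or Atp5, and numbered Cox names, of which those of Cox5 to Cox8 matched. The choice gave 83 of the 40840 gene symbols of the count table, with 37 in complex I, 4 in complex II, 9 in complex III, 16 in complex IV and 17 in complex V. The libraries were RNA-seq of total RNA from eyes, labelled as retinal ganglion cells (RGCs), of female mice aged 7 to 8 weeks. The naive group (treatment Control, 4 libraries) had no EAE, and the other groups had EAE and were taken at the pre stage before symptoms (4 libraries), at onset (4 libraries) and at the peak (1 library). A second peak sample stands in the labels and was not analysed here. The sources used here name no strain, genotype or sorting step and do not say whether replicates were separate animals, so p-values measure the spread between these libraries, which may be technical.

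Oxidative phosphorylation makes most of a neuron's ATP. Complex I (NADH dehydrogenase) and complex II (succinate dehydrogenase) pass electrons to coenzyme Q, complex III (the cytochrome bc1 complex) passes them on to cytochrome c, and complex IV (cytochrome c oxidase) hands them to oxygen, while complexes I, III and IV pump protons that drive ATP synthase (complex V). All of these complexes except complex II also hold subunits encoded in mitochondrial DNA, whose transcripts were not analysed here. Retinal ganglion cells are known for a high energy demand in the unmyelinated stretch of their axons inside the eye, and inherited defects of complex I cause loss of these cells in humans.

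Libraries held between 2596705 and 7641214 counts in genes, and the members took 0.459% to 0.638% of them. The least that 3 counts can stand for was 0.393 to 1.16 CPM (counts scaled so that library totals are equal) in any 1 library, a limit that covers counting error only. Reads placed at several genome positions were 5.76% to 7.20% of reads, so short members with processed copies elsewhere in the genome, such as Cox7c, Ndufb4, Ndufs5 and Ndufs6, are uncertain in level. The labelled cell type was checked against marker lists. Of 14 ganglion cell markers 13 were expressed well enough to be tested, with a summed level of 1275 to 1704 CPM in the naive, 1231 to 1891 in the pre and 1183 to 1426 in the onset libraries, and 1373 in the peak library. No single marker passed the test, but most were lower in the later stages. At onset 10 of the 13 were lower than in naive (median log2 fold change -0.95) and 10 lower than in pre (median -1.07, with 8 lower and 0 higher at an unadjusted p under 0.05), and in the peak library 11 were lower than in naive (median -1.59). In the peak library the ganglion cell factor Pou4f2 was at 0 counts and Slc17a6, the glutamate transporter of these cells, at 0.754 CPM, against naive means of 3.49 ± 3.08 and 17.3 ± 13.1 CPM (SD, n = 4). The 13 amacrine cell markers summed to 5708 to 7899 CPM over the 13 libraries, so RNA of other retinal cells was present throughout. The 15 rod markers ranged from 298 to 7839 CPM and the 16 microglia and macrophage markers from 143 to 721 CPM in naive, 585 to 1483 in pre, 477 to 2427 in onset and 1158 in the peak library. In such mixtures fewer cells of a type and less RNA per cell cannot be told apart, and the part of these markers in the results on the members was not tested.

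The members were expressed in a wide range of levels, with complex V at the top. Levels between genes are compared as CPM per kilobase of exon, averaged over the 13 libraries. The median tested member had 51.9 CPM per kilobase, and 10 members were above 100. The highest level was that of Atp5b, the catalytic beta subunit of ATP synthase, at 368 CPM per kilobase, followed by its partner Atp5a1, the alpha subunit, at 198. Next came Cox8a, a small subunit of complex IV, at 174, and Atp5g3, one of the genes for the proton-carrying c subunit, at 141. The lowest tested member of complex V, Atp5g1, another c subunit gene, had 25.8. In complex I the levels ran from 9.99 CPM per kilobase for Ndufb4 to 91.9 for Ndufa4, whose protein is now counted to complex IV although its symbol places it here. The catalytic core of complex I lay between these ends, with 38.2 for Ndufs1, the large iron-sulphur subunit, 65.6 for Ndufv1, the subunit that binds NADH, and 59.2 for Ndufs7. In complex III the hinge protein gene Uqcrh was highest at 128 and the Rieske iron-sulphur protein gene Uqcrfs1 lowest at 36.7, with 60.6 for the core subunit Uqcrc1 and 48.5 for Cyc1, which encodes cytochrome c1. In complex IV, Cox5a and Cox6c stood at 71.6 and 99.0.

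Complex II was uneven. Sdha, the flavoprotein that oxidizes succinate, had 117 CPM per kilobase, Sdhb, its iron-sulphur partner, 35.8, and the membrane anchors Sdhc and Sdhd had 18.5 and 21.4. The Sdhc value depends on the exon length assigned to it (3171 bases), since lengths come from 1 principal transcript per gene. Of the counts of all tested members, complex V took 37.7% to 39.8% of the summed CPM, complex I 31.3% to 32.7%, complex IV 9.73% to 11.3%, complex III 9.54% to 10.3% and complex II 8.18% to 9.85% over the 13 libraries.

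Several subunits have paralogues, some of them tissue-restricted. In these libraries the widely expressed form was the main one in each of the Cox families. Among the c subunit genes, which encode the same mature protein, Atp5g3 gave 67.0% of the level per kilobase (range over libraries 63.1% to 73.9%), Atp5g2 20.6% and Atp5g1 12.4%. Cox6a1 gave 99.2% against the heart and muscle form Cox6a2, which had 34 counts in all 13 libraries together. Cox7a2 gave 97.6% against 2.44% for the muscle form Cox7a1, which had 1 to 8 counts per library and passed the low-count filter barely. Cox6b1 gave 89.6% and Cox6b2, known from testis, 10.4%, with a range of 3.95% to 16.8%. Cox4i1 gave 96.2% and Cox4i2, known for its induction by low oxygen, 3.80%, ranging from 0.175% to 9.54%; both lie outside the symbol rule and are given for comparison. The remaining forms were near absent: Cox7b2 had 1 count, Cox8b 2 counts and Cox8c 0 counts over the 13 libraries. Cox6a2, Cox7b2, Cox8b and Cox8c were not tested for that reason, which left 79 members tested. The shares of naive, pre and onset overlapped in all of these families; for Cox6b2 the mean share was 8.96% ± 3.51 in naive, 10.2% ± 5.75 in pre and 11.1% ± 2.39 in onset (SD, n = 4), and 14.4% in the peak library.

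Many genes of this class are known to be driven by the factors NRF1, GABP (which binds ETS motifs) and YY1, so the start-site windows of the members were searched for these motifs. RefSeq windows (GRCm38.p6, 250 bases before to 50 after the start) were found for 69 of the 83 members. Searched on both strands, the NRF1 motif (GCGCA, 1 base of any kind, GCGC) was in the windows of 17 members (24.6%), against 5.19% of all 27025 genes with a window. The ETS motif CCGGAAG was in 17 members (24.6%, all genes 9.93%) and the YY1 motif AAGATGGC in 10 members (14.5%, all genes 3.19%). In contrast, the share of members was near that of all genes for the SP1 motif GGGCGG (40.6% and 38.2%), for CCAAT (43.5% and 41.1%) and for TATAAA (11.6% and 15.7%). At least 1 of the NRF1, ETS and YY1 motifs was in 38 members (55.1%, all genes 16.4%), and 6 members held more than 1 of them. Of the 10 YY1 matches 8 lay after the start site. By complex, complex V had the NRF1 motif in 6 of 15 genes and the ETS motif in 6, complex I had NRF1 in 7 of 33, ETS in 4 and YY1 in 7, and complex IV had NRF1 in 1 of 13 and ETS in 3. These matches are descriptions of letters in a window and were not tested.

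The windows of 5 members are shown to let these motifs be seen in place, 1 for each complex: the member with the smallest p at the peak against naive among those with a motif. NRF1 and ETS motifs are in capitals, on either strand, and each window is written 5′ to 3′ along its gene, with the start at base 251.
Ndufa6 (complex I, chr15:82354242-82354541, minus strand, GRCm38.p6): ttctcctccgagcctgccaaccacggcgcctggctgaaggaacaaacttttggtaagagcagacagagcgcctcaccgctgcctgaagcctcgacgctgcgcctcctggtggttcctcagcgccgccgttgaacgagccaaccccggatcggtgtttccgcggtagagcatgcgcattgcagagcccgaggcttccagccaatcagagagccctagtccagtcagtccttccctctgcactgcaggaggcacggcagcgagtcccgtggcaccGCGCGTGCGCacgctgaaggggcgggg
Sdhb (complex II, chr4:140961021-140961320, plus strand): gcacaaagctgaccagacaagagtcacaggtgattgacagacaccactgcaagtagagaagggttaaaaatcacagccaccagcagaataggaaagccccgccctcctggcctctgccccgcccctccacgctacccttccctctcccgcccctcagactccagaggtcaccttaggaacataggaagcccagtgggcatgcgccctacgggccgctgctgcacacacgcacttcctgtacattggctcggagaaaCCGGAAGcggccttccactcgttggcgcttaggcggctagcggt
Uqcrc1 (complex III, chr9:108936398-108936697, plus strand): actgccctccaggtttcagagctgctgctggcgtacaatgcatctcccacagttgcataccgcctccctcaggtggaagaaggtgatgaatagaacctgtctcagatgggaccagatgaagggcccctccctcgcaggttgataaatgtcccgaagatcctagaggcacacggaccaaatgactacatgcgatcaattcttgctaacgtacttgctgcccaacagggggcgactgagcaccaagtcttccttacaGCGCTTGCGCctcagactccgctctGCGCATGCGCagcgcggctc
Cox8a (complex IV, chr19:7217567-7217866, minus strand): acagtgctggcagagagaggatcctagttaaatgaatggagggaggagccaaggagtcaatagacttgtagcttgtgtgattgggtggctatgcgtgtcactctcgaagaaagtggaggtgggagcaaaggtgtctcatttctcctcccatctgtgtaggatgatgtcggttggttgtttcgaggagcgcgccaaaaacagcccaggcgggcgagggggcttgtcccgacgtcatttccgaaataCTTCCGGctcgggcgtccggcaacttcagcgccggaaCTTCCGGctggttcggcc
Atp5o (complex V, chr16:91931581-91931880, minus strand): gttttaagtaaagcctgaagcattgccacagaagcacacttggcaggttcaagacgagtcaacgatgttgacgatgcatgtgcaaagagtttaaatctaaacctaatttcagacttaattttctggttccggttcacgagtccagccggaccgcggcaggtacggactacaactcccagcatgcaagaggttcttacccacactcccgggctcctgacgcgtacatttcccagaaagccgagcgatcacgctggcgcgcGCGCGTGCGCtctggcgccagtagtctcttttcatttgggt
Ndufa6 and Atp5o each hold 1 NRF1 motif, starting 23 and 9 bases past the start site, and Uqcrc1 holds 2, at 5 and 30 bases. Sdhb holds 1 ETS motif at 6 bases, and Cox8a holds 2, the first 5 bases before the start and the second 32 bases after it. Tested members with and without any of the 3 motifs had close median log2 fold changes: at the peak against naive 0.29 for 38 members with a motif and 0.28 for 29 without, and at onset against naive 0.08 and 0.06.

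Summed over the complexes, the members' transcripts were close in naive, pre and onset, and highest in the peak library. The summed level of the 79 tested members was 5364, 4721, 5103 and 4946 CPM in the naive libraries 1, 2, 4 and 5. It was 5173, 5338, 4667 and 5146 CPM in pre 1 to 4, and 5010, 5312, 5237 and 5608 CPM in onset 1 to 4. The peak library stood at 6124 CPM, above each of the 12 others, while naive, pre and onset overlapped. Each complex except complex II had its highest value in the peak library. Complex I summed to 1602 ± 106 CPM in naive, 1626 ± 102 in pre and 1684 ± 92.7 in onset (SD, n = 4), and to 1937 in the peak library. Complex V summed to 1950 ± 105, 1964 ± 102, 2054 ± 100.03 and 2396 CPM in the same order. Complex II was 460 ± 10.5 CPM in naive, 435 ± 20.6 in pre and 492 ± 8.55 in onset (SD, n = 4), so that the 4 onset libraries (482 to 503) lay above all naive (452 to 475) and all pre libraries (408 to 458). The peak library had 501 CPM for complex II, inside the onset range. Sdha makes up most of the sum of complex II.

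**Figure D1:**
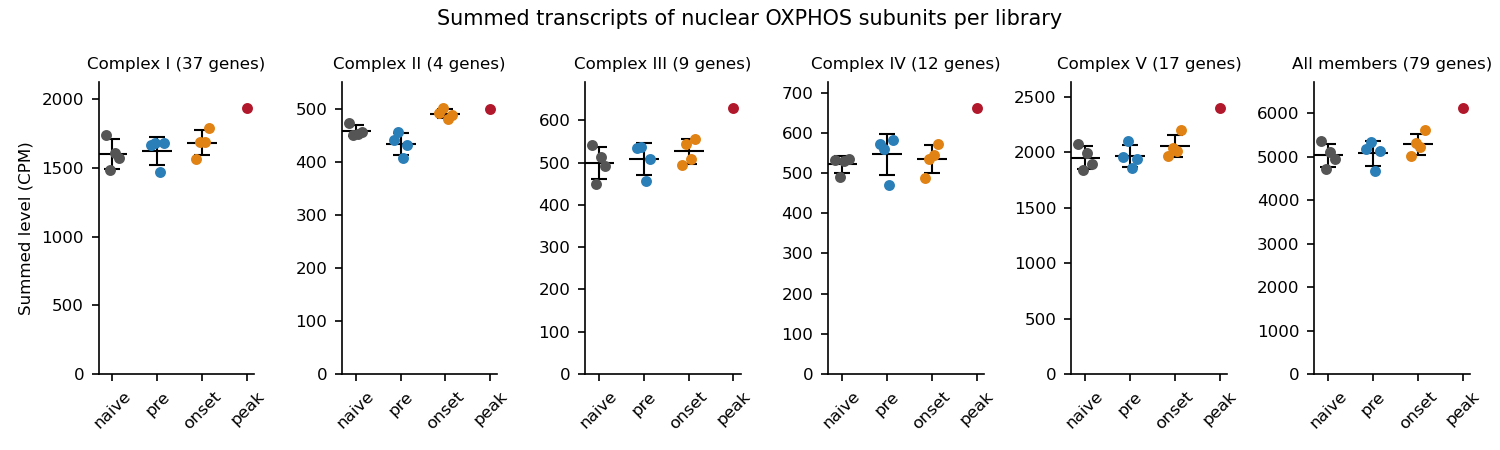
Summed level in CPM of the tested members of each complex and of all 79 members, one point per library, by stage; black bars are the mean and SD of the 4 libraries of a group, and the peak has 1 library. The peak library is the highest point in every panel except complex II, where onset 2 (503 CPM) is just above it (501 CPM), and the onset points of complex II lie above those of naive and pre.

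Members varied together by library. The peak library held the highest level of 42 of the 79 members and the lowest of none, and 78 members were above their own median there. The lowest value of a member was most often in pre 3 (24 members) or naive 2 (23 members). These counts were not made over all genes, so how far they are particular to the members was not tested. In the peak library 21.8% of all genes were above every naive library and 22.6% were below. The mean deviation of the members from their own average was 0.26 on the log2 scale in the peak library, -0.17 in naive 2 and -0.17 in pre 3, and -0.09 to 0.08 in the other 10 libraries. The members had a median biological coefficient of variation between replicates of 0.130, against 0.169 for all genes tested. By complex it was 0.102 (complex II) to 0.133 (complexes I and IV). Genes of matched level were not compared, so whether the members vary less than such genes was not tested.

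**Figure D2:**
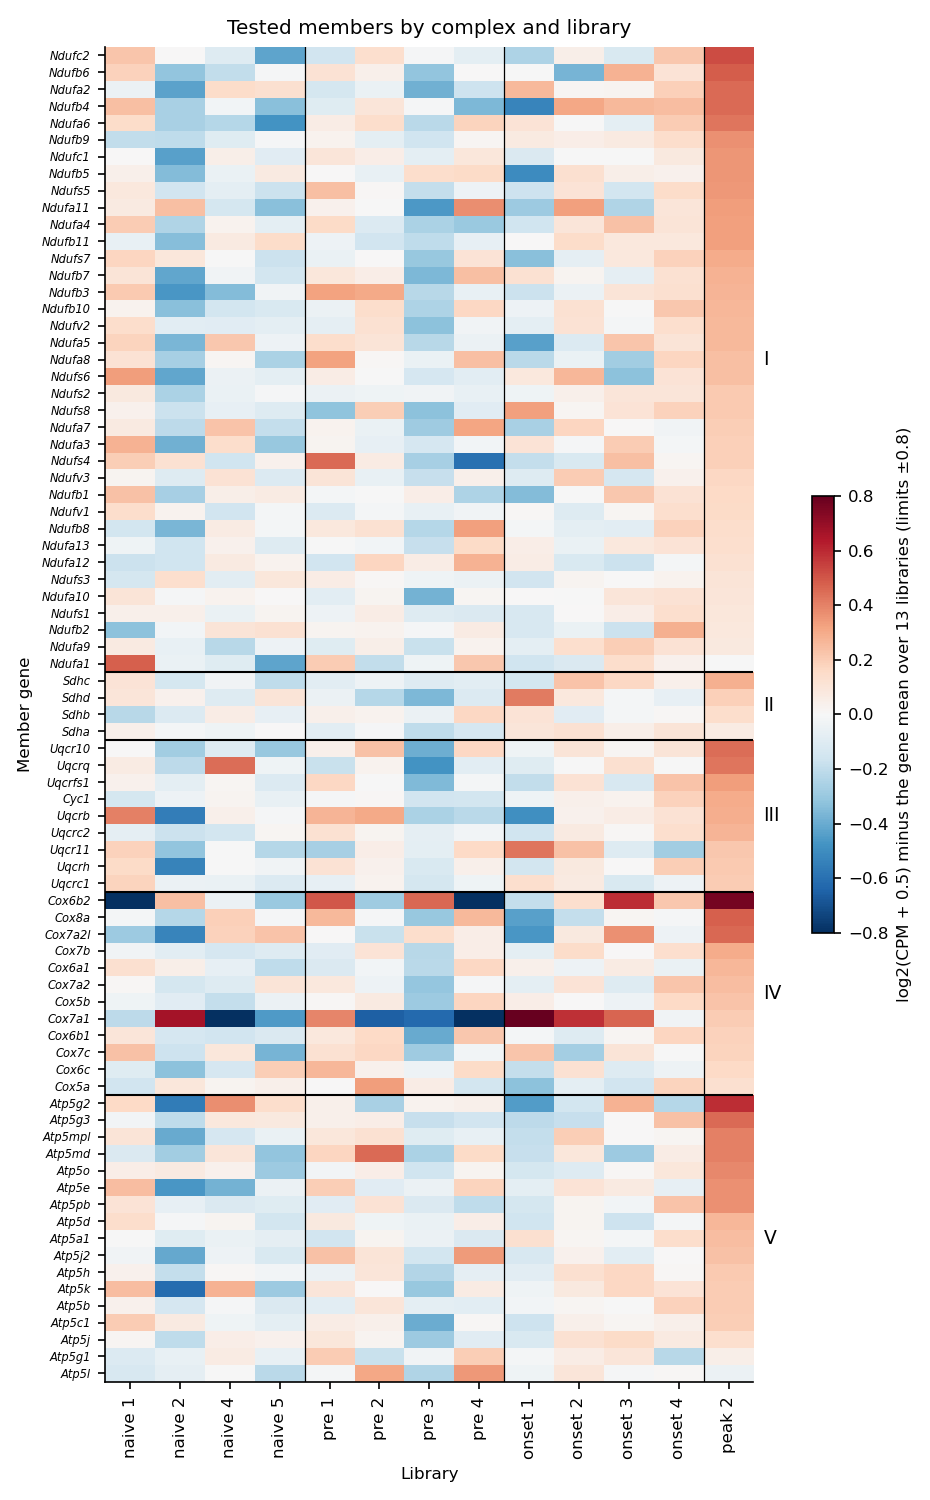
Log2 level (CPM plus 0.5) of each tested member minus its mean over the 13 libraries, with members in rows by complex (ordered within it by the value in the peak library) and libraries in columns by stage; colours end at ±0.8. The peak column is red for nearly all rows, naive 2 and pre 3 are mostly blue, and Cox7a1 and Cox6b2, which have few counts, vary most.

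The first comparison asks whether the members differed before symptoms. No difference between pre and naive passed the test for any member. edgeR called 0 of 79 members at an adjusted p under 0.05 (all genes: 0%), the smallest adjusted p of a member was 0.807, and 1 member was higher and 0 lower at an unadjusted p under 0.05 (all genes: 2.24% and 3.34%). That count of 1 was 8 without pre 3, 5 without naive 1, 2 without naive 4 or naive 5 and 0 without pre 1 or pre 4. No member had all pre libraries above (all genes: 1.36%) or below (all genes: 1.62%) all naive libraries. DESeq2 and limma-voom called 0 members (all genes: 6 and 0 of 14893). The median log2 fold change of the members was 0.03, with 46 of 79 above 0 (all genes: median -0.02, 45.7% above 0). This lean is set by single libraries: the median was -0.01 without naive 2, -0.003 without naive 5, 0.06 without naive 1, 0.05 without pre 3 and 0.01 without pre 1, pre 2 or pre 4.

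The member with the smallest p before symptoms was Atp5j2, the f subunit of the membrane part of ATP synthase. It had 45.3, 34.6, 44.9 and 42.3 CPM in naive and 54.2, 49.7, 41.6 and 58.6 CPM in pre, a log2 difference of 0.29 ± 0.12 (SE; edgeR adjusted p = 0.807). The groups overlapped through pre 3. Atp5md, a small membrane subunit of complex V, differed by 0.32 ± 0.16, and the complex I accessory subunits Ndufa6 and Ndufa8 by 0.25 ± 0.13 and 0.23 ± 0.13. On the lower side were Uqcrq, a small complex III subunit, at -0.25 ± 0.15 and the complex II anchor Sdhd at -0.22 ± 0.12. In complex IV, Cox6c differed by 0.19 ± 0.12, and Cox7a1 by -0.32 ± 0.75 on few counts, a sign that turned with limma-voom and without naive 2. None of these passed after adjustment. For 75 of the 79 members the 95% interval of the difference lay within 1.5-fold in either direction, which bounds what these libraries could have missed.

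At symptom onset the members leaned upward against naive, with no member past the threshold. edgeR called 0 of 79 members (all genes: 0%), with a smallest adjusted p of 0.785 and 1 member higher and 0 lower at an unadjusted p under 0.05 (all genes: 2.46% and 3.5%). That count of 1 was 6 without onset 1, 4 without naive 1, 3 without pre 3, 2 without pre 2 and 0 without onset 4. DESeq2 and limma-voom called 0 members (all genes: 16 and 0 of 14893). The median log2 fold change was 0.08, and 62 of 79 members were above 0, where all genes had a median of -0.01 and 47.3% above 0. The median was 0.04 without naive 2 and 0.13 without onset 1. By complex the medians were 0.08 (I), 0.09 (II), 0.11 (III), 0.08 (IV) and 0.09 (V). With the trend over exon length taken out of each library, the median was 0.04 and 52 members were above 0.

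Every onset library was above every naive library for 2 members, Ndufb9 and Sdha (2.53%, all genes 1.39%), and below for none (all genes 1.69%). Ndufb9, an accessory subunit in the membrane arm of complex I, had 44.6, 44.4, 47.8 and 50.9 CPM in naive and 53.8, 53.1, 54.0 and 56.5 CPM at onset. The difference was 0.21 ± 0.08 on the log2 scale (SE; edgeR adjusted p = 0.785). Sdha had 349, 334, 330 and 340 CPM in naive and 362, 368, 350 and 364 CPM at onset, a difference of 0.09 ± 0.06. Its groups touch: the lowest onset library and the highest naive library are both near 350 CPM. Among other members named by the rule, Ndufb10 of complex I differed by 0.22 ± 0.11, Uqcr10 of complex III by 0.22 ± 0.13, Cyc1 by 0.11 ± 0.08, Cox7b by 0.15 ± 0.09 and Sdhc by 0.15 ± 0.10. The catalytic subunits of ATP synthase differed by 0.12 ± 0.07 (Atp5a1) and 0.10 ± 0.08 (Atp5b). The lowest values were Atp5g2 at -0.18 ± 0.20 and Cox8a at -0.13 ± 0.14, and the highest Cox7a1 at 1.04 ± 0.68 and Cox6b2 at 0.46 ± 0.37, both on few counts. Cox7a1 passed the low-count filter through onset 1, its highest library at 2.65 CPM, and fell under it without that library. Its place as the highest value at onset is therefore partly set by the filter. The electron-carrying core of complex I was near 0, with 0.01 ± 0.07 for Ndufs1, 0.01 ± 0.08 for Ndufv1 and -0.04 ± 0.13 for Ndufs7. For 75 of 79 members the 95% interval lay within 1.5-fold in either direction.

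**Figure D3:**
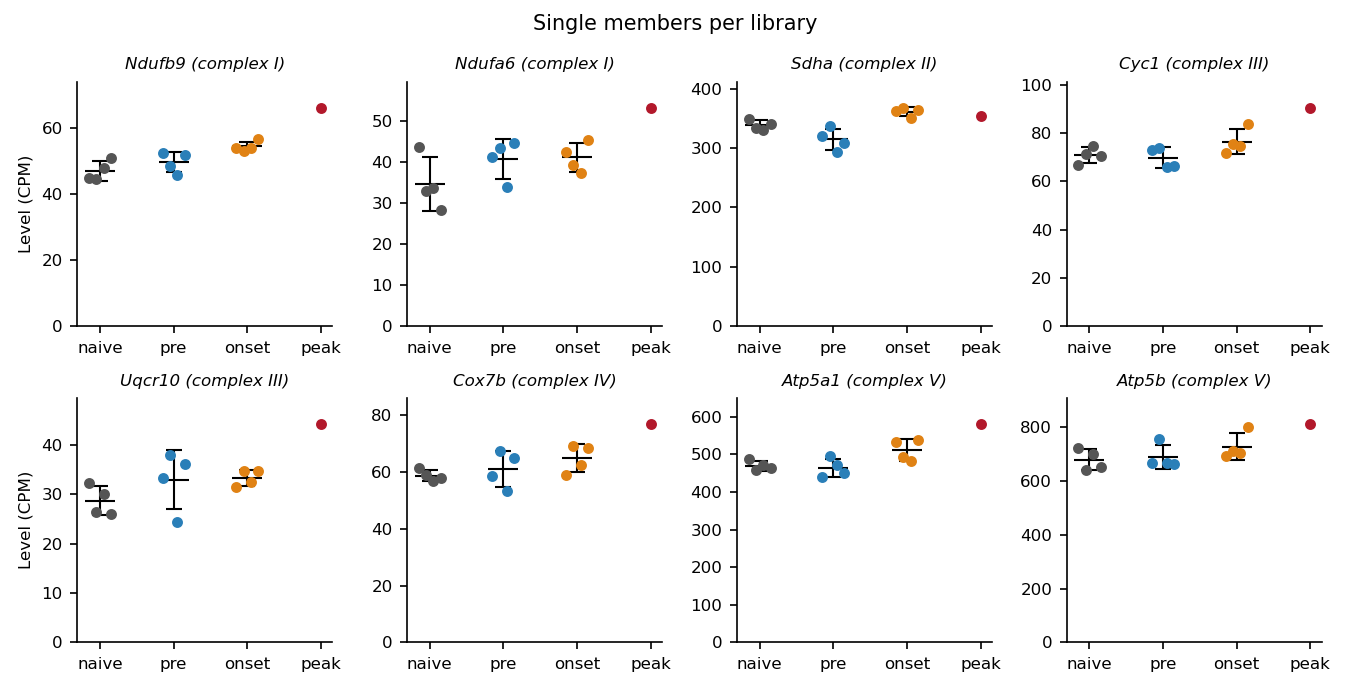
Level in CPM of 8 named members, one point per library by stage, with the mean and SD of groups of 4 as black bars. The peak library is the highest point in each panel except that of Sdha, where it (355 CPM) lies within the onset points (350 to 368 CPM); naive, pre and onset overlap in most panels.

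From pre to onset the medians of the log2 differences were 0.04 in complex I, 0.18 in the 4 genes of complex II, 0.06 in complex III, 0.03 in complex IV and -0.0048 in complex V, and the difference between complexes was not tested. Sdha, with 320, 337, 294 and 308 CPM in pre against 362, 368, 350 and 364 CPM at onset, differed by 0.20 ± 0.06 on the log2 scale (SE; edgeR adjusted p = 0.615), and the groups did not overlap. Sdhd had 25.2, 22.2, 20.3 and 24.2 CPM in pre and 34.9, 27.6, 25.8 and 24.9 CPM at onset, a difference of 0.29 ± 0.12 with onset 4 inside the pre range. The other subunits of complex II differed by 0.16 ± 0.10 (Sdhc) and -0.05 ± 0.09 (Sdhb). No member passed: edgeR called 0 of 79 (all genes: 0%), with a smallest adjusted p of 0.615 and 4 members higher and 0 lower at an unadjusted p under 0.05 (all genes: 3.1% and 3.71%), namely Sdha, Sdhd, Ndufs8 at 0.28 ± 0.12 and Ndufa2 at 0.31 ± 0.14. Ndufs8 is an iron-sulphur subunit of the complex I core and Ndufa2 an accessory subunit. The count of 4 was 2 without pre 4. DESeq2 and limma-voom called 0 members (all genes: 20 and 0 of 14893). Onset lay wholly above pre for 4 members (5.06%, all genes 1.98%), Sdha, Ndufa2, Ndufb9 and Ndufb11, and wholly below for none (all genes 2.48%). On the lower side were Atp5md at -0.23 ± 0.16, Ndufa8 at -0.22 ± 0.13, Cox8a at -0.21 ± 0.14 and Atp5j2 at -0.19 ± 0.12. The median over the members was 0.04, with 51 of 79 above 0 (all genes: 0.01, 52.8%). That median was -0.02 without pre 3, 0.01 without onset 4, 0.07 without pre 2 or onset 1, 0.06 without pre 4, and 0.00 with the exon length trend taken out.

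In the peak library nearly all members were above the naive mean, by amounts that differed between genes. The median log2 fold change was 0.29 (quartiles 0.21 and 0.42), and 78 of 79 members were above 0, where all genes had a median of -0.03 and 46.5% above 0. The medians were 0.28 in complex I, 0.19 in complex II, 0.34 in complex III, 0.30 in complex IV and 0.30 in complex V. The peak value was above all 4 naive libraries for 61 members (77.2%, all genes 21.8%) and below all 4 for none (all genes 22.6%). The exception was Ndufa1 at -0.0028 ± 0.27, whose sign turned under other scalings and filters, and the next lowest was Atp5l at 0.06 ± 0.20, which was below 0 with the exon length trend taken out. There is 1 peak library, whose spread was taken from the other groups, so the peak stage and this library cannot be told apart.

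No member passed the threshold at the peak with edgeR, which called 0 of 79 (all genes: 0.161%, with 1 gene or 0.00671% higher and 23 genes or 0.154% lower), with 25 members higher at an unadjusted p under 0.05 (all genes: 3.34%) and none lower (all genes: 6.22%). That count was 14 without naive 2, and 4 with the trend over exon length taken out of each library. DESeq2 called 2 members (2.53%, all genes 1.97%, either direction), Ndufb9 and Atp5a1, while limma-voom called 0 (all genes: 98 of 14893). Both members were higher, whereas most of the genes that DESeq2 called were lower, so the 2 shares are not alike in direction. The smallest adjusted p with edgeR was that of Ndufb9, which had 66.1 CPM in the peak library against 44.4 to 50.9 CPM in naive, a log2 difference of 0.49 ± 0.12 (SE; adjusted p = 0.139). Ndufa6, an accessory subunit of complex I whose window is printed above, had 53.3 CPM against 43.7, 32.8, 33.6 and 28.2 CPM in naive, a difference of 0.63 ± 0.20 (adjusted p = 0.281). The core subunits of complex I differed less: 0.08 ± 0.11 for Ndufs1, 0.15 ± 0.12 for Ndufv1 and 0.27 ± 0.19 for Ndufs7. In complex II the anchor Sdhc differed by 0.35 ± 0.14 and Sdhb by 0.22 ± 0.13, while Sdha, the most abundant subunit, differed by 0.07 ± 0.10.

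In complex III the smallest p at the peak belonged to Uqcr10, a small subunit, and Cyc1. Uqcr10 had 32.4, 26.5, 30.002 and 26.1 CPM in naive, 33.4 ± 1.60 CPM at onset (SD, n = 4) and 44.2 CPM in the peak library. Its difference from naive was 0.62 ± 0.19 (adjusted p = 0.267). Cyc1 had 66.6, 71.4, 74.6 and 70.5 CPM in naive and 90.6 CPM in the peak library, a difference of 0.35 ± 0.11 (adjusted p = 0.298). The Rieske protein gene Uqcrfs1 differed by 0.37 ± 0.18 and the core subunit Uqcrc1 by 0.21 ± 0.13. In complex IV, Cox7b had 61.3, 58.8, 56.9 and 58.1 CPM in naive and 76.9 CPM in the peak library, a difference of 0.39 ± 0.13 (adjusted p = 0.328). Both Cox7b and Cyc1 had naive values within a narrow range. Cox8a had 93.7, 80.6, 108 and 94.0 CPM in naive and 132 CPM in the peak library, a difference of 0.49 ± 0.21, and Cox6b2 had 4.85 ± 1.82 CPM in naive (SD, n = 4) and 10.05 CPM in the peak library, a difference of 1.04 ± 0.52. Cox5a and Cox6c differed by 0.12 ± 0.19 and 0.23 ± 0.18.

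In complex V all 17 members were above 0 in the peak library against naive, with log2 differences from 0.06 to 0.56. Atp5a1 had 487, 457, 471 and 464 CPM in naive, 512 ± 28.1 CPM at onset (SD, n = 4) and 580 CPM in the peak library, a difference from naive of 0.30 ± 0.10 (SE; edgeR adjusted p = 0.331). Atp5b had 721, 641, 698 and 650 CPM in naive and 810 CPM in the peak library, a difference of 0.26 ± 0.12. Atp5mpl, a small membrane subunit, differed by 0.52 ± 0.18. The c subunit genes went apart: Atp5g3 differed by 0.46 ± 0.16 and Atp5g2 by 0.54 ± 0.29, but Atp5g1 by 0.09 ± 0.20, and whether these differences differ from each other was not tested. For 23 of 79 members the 95% interval of the peak difference lay within 1.5-fold in either direction, fewer than in the 4 against 4 comparisons.

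**Figure D4:**
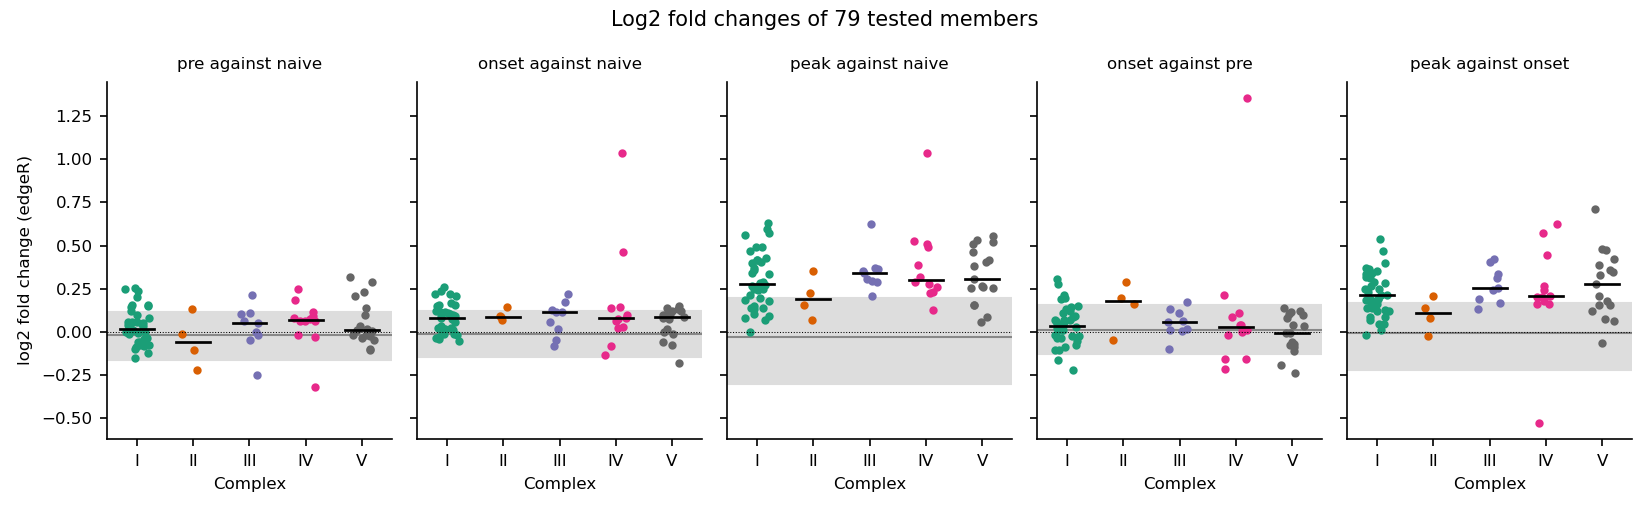
Log2 fold change (edgeR) of each of the 79 tested members by complex in the 5 comparisons; black lines are medians by complex, and the grey band with its line is the middle 50% and the median of all 14893 genes tested. In the panels of the peak library nearly all points lie above 0 and most above the band, while in pre against naive they lie around 0.

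Against onset, the peak library showed the same lean; this comparison shares its peak library with the one against naive. The median over the members was 0.21, with 75 of 79 above 0 (all genes: -0.01, 48.7%), and the peak value was above all 4 onset libraries for 58 members (73.4%, all genes 19.5%). edgeR called 0 of 79 (all genes: 0%), with a smallest adjusted p of 0.698 and 9 members higher at an unadjusted p under 0.05 (all genes: 1.28%) and 0 lower (all genes: 3.8%). That count was 4 without onset 1 and 1 with the exon length trend taken out. DESeq2 and limma-voom called 0 members (all genes: 113 and 20 of 14893). Cox8a had 69.8, 82.7, 95.4 and 94.2 CPM at onset and 132 CPM in the peak library, a difference of 0.62 ± 0.21 (SE; edgeR adjusted p = 0.698). Atp5g3 had 86.4, 87.8, 100.1 and 118 CPM at onset and 137 CPM, a difference of 0.48 ± 0.16. Both were above every onset library. Atp5o, a stalk subunit of complex V, differed by 0.42 ± 0.15, Ndufc2 of complex I by 0.54 ± 0.21 and Atp5g2 by 0.71 ± 0.29. Atp5l was the 1 member below all onset libraries (1.27%, all genes 18.2%), at -0.06 ± 0.20.

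The peak library also differed from the others in which transcripts its counts came from. The median exon length over its counts was 3714 bases, against 3892 to 4096 bases in the other 12 libraries. Its share of reads outside annotated genes was the lowest, at 22.8% against 25.05% to 27.6%. The longest medians were those of naive 2 (4096 bases) and pre 3 (4084 bases), where members were most often lowest. The part of exon length in these low levels was not tested. Among all genes the log2 fold change at the peak against naive ran with exon length: the median was 0.19 for genes under 1 kilobase, 0.14 for 1 to 2, 0.01 for 2 to 4, -0.15 for 4 to 8 and -0.42 for genes over 8 kilobases. The members are short, with 51 of 79 under 1 kilobase, 23 from 1 to 2 and 5 from 2 to 4. In the same classes their medians were 0.34, 0.22 and 0.08, each above that of all genes of the class. With each library's trend over exon length taken out, the median of the members at the peak was 0.11 against naive, with 65 of 79 above 0, and 0.08 against onset, with 58 of 79 above 0.

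**Figure D5:**
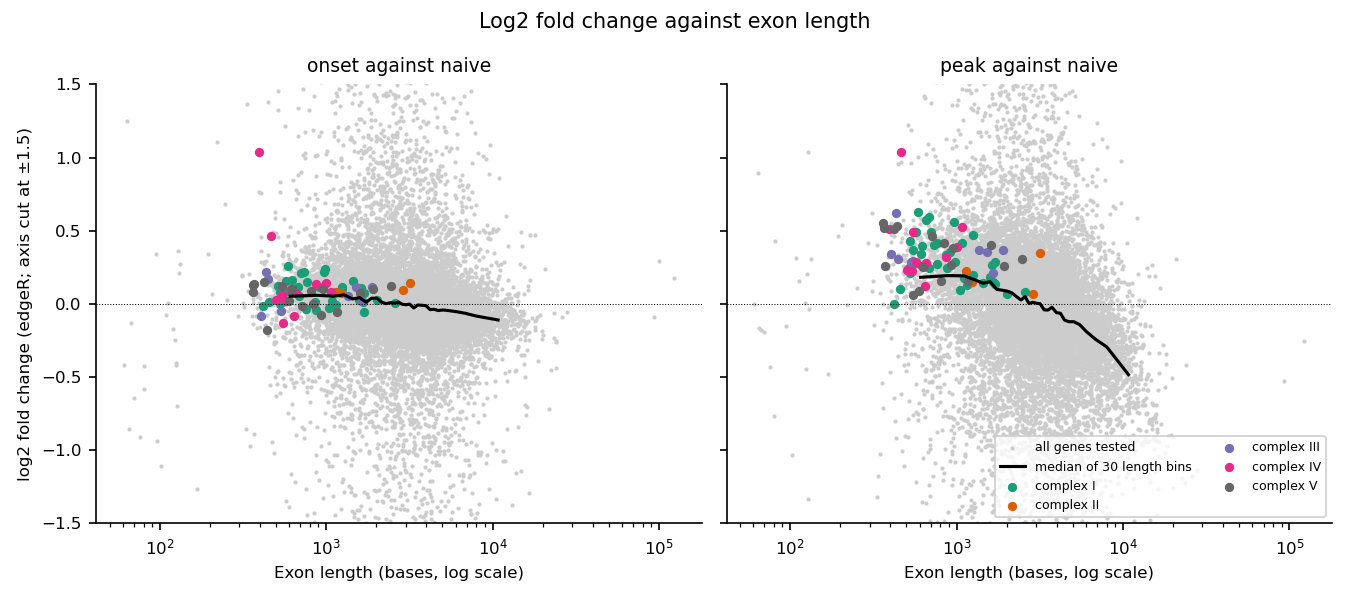
Log2 fold change (edgeR) against exon length in bases (log axis) for all tested genes with a length (grey; axis limited to ±1.5) and for the members by complex (coloured), at onset and at the peak against naive; the black line joins medians of 30 length bins. At the peak the line falls as exon length rises, and the members lie at the short end, mostly above the line. By length class, the median of all genes at the peak was 0.19 under 1 kilobase and -0.42 over 8 kilobases.

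Genes that build or feed the complexes were counted in the same way, and none was called in any comparison. At the peak against naive the 9 mitochondrial carriers and porins were all above 0 (median 0.33), and the smallest p were those of the ATP/ADP exchanger Slc25a5 at 0.46 ± 0.15 and the oxoglutarate carrier Slc25a11 at 0.45 ± 0.14. The citric acid cycle had 15 of 17 genes above 0 (median 0.16), with Sucla2, a subunit of succinyl-CoA ligase, at 0.30 ± 0.14. The complex V assembly list had 6 of 6 above 0 (median 0.23), with Atpif1, the inhibitor of ATP hydrolysis by the synthase, at 0.46 ± 0.15. The electron carriers and coenzyme Q genes had 11 of 17 above 0 (median 0.12). The assembly factors of complex I were mostly below 0, with 5 of 15 above it (median -0.12), those of complex II had 3 of 4 above 0 (0.23), of complex III 5 of 6 (0.20) and of complex IV 14 of 20 (0.10). In the complex III list Ttc19, which clears fragments of the Rieske protein, was at -0.56 ± 0.11 (SE; edgeR adjusted p = 0.0843) and Uqcc2 at 0.51 ± 0.17, and in the complex IV list Coa3 was at 0.54 ± 0.15. Regulators of mitochondrial gene expression had 7 of 20 above 0 (median -0.12), with the nuclear receptor Esrra at 0.49 ± 0.16.

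At onset against naive, 14 of 17 citric acid cycle genes were above 0 (median 0.05), 5 of 9 carriers and porins (0.05), 4 of 15 complex I assembly factors (-0.11) and 8 of 20 regulators (-0.06). The smallest p in these lists at onset were those of Atpaf2, an assembly factor of ATP synthase, at 0.30 ± 0.10, Ttc19 at -0.20 ± 0.07, Ndufaf5, an assembly factor of complex I, at -0.40 ± 0.15 and Ndufab1, the acyl carrier protein that is also a complex I subunit, at -0.39 ± 0.15, with adjusted p of 0.785 each. From pre to onset the coactivator gene Ppargc1b differed by -0.61 ± 0.17 (SE; edgeR adjusted p = 0.615). Before symptoms 6 of 20 regulators were above 0 (median -0.09) and 13 of 17 citric acid cycle genes (0.05).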

How the data were processed

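For 13 libraries the authors deposited whole-number read counts by gene symbol, written by HTSeq, and its 5 summary lines stayed out of library sizes and tests. Per the submitters' processing notes the other tools were cutadapt, HISAT2 and DESeq2. No version, genome build, annotation or use of strand is named in the sources used here, so reads of overlapping and antisense genes cannot be told apart.

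The main test was the two-sided quasi-likelihood F test of edgeR 4.0.16 (R 4.3.3), from 1 robust fit to the 13 libraries with TMM factors, after filterByExpr (minimum count 10, by group). P-values were Benjamini-Hochberg adjusted over 14893 genes, with a threshold of 0.05. DESeq2 1.42.0 and limma 3.58.1 (voom with quality weights) were alternatives, with others on scaling, filtering, exon length and single libraries. CPM values use TMM library sizes. Exon lengths came from GENCODE M21 (GRCm38), from 1 principal transcript per gene where one is marked, and promoter windows from RefSeq GRCm38.p6. The code was tested on simulated data. All per-sample columns were mapped to samples.

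The members, gene lists and tests were chosen with earlier results of these data known. Named members are the main catalytic subunits, per comparison the 2 smallest p of each complex and the 2 highest and 2 lowest fold changes, the highest and lowest level of each complex, and tissue-restricted paralogues. From the other lists the 2 smallest p are the pool of named genes. Replicate numbers come from the sample titles. Deviations of same-numbered naive and pre libraries correlated over genes at 0.27, 0.19 and 0.29. Libraries with different numbers were not compared, so whether the numbers pair naive with pre was not tested. With the number as a block, 0 members were called in every comparison.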

Additional observations from a re-analysis of the deposited data

Results flagged for a closer look

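In groups of 4 libraries, 7 of 108 checked values had 1 library standing apart from the other 3 by more than Dixon's 95% critical value, and chance alone flags about 1 in 20. In naive, the complex IV sum was 490.3 CPM in naive 2 against 529.5 to 535.2 in the others, Atp5o was 48.21 CPM in naive 5 against 60.48 to 62.21, and Cox6b1 was 74.82 CPM in naive 1 against 62.64 to 64.28. In pre, the complex I sum was 1474 CPM in pre 3 against 1669 to 1683. Atp5b was 753.4 CPM in pre 2 against 662.2 to 666.7, Atp5g2 was 15.62 CPM in pre 2 against 19.21 to 19.38, and Cox7a1 was 1.21 CPM in pre 1 against 0.2517 to 0.3492, the last on 1 to 6 counts.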

How the results depend on the processing

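Over 11 alternatives and 13 left-out libraries, 1408 of 1422 recomputed values of 62 results on named members kept their direction and side of the threshold. All 62 results were uncalled in the main fit, so keeping that side says little. Many of the left-out libraries were also outside the comparison concerned. DESeq2 called 2 members at the peak against naive, Ndufb9 (log2 fold change 0.48) and Atp5a1 (0.30). With the exon length trend removed, the median at the peak was 0.112 against naive and 0.084 against onset; this step uses genes with a length only. Of the single-member values 12 had the opposite sign, all of them uncalled. Ndufa1 at the peak was 0.0012 with DESeq2, 0.138 with limma-voom, 0.027 with upper-quartile factors, 0.080 with library totals, 0.069 without a filter, 0.048 with the replicate block and 0.039 with rod markers as a covariate, and with 1 library left out -0.14 to 0.19. Atp5l at the peak was -0.038 with the replicate block and -0.168 with the length trend removed. Cox7a1 in pre against naive was 0.093 with limma-voom, and -1.11 to 0.34 with 1 library left out. The cause was not tested. Cox7a1 fell under the low-count filter in some settings, such as without onset 1, and the peak has no value without its library.

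Under the replicate block the medians were 0.02 (pre), 0.11 (onset) and 0.34 (peak) against naive, 0.04 for onset against pre and 0.23 for peak against onset, and 0 members were called, so no call on a member changed. Over all genes, calls at the peak against naive went from 24 to 0 under the block, 293 with DESeq2, 98 with limma-voom, 111 with the rod covariate and 1 with the length trend removed. They were 6 without naive 4, 7 without naive 2, 9 without onset 1, 10 without onset 4 and 11 without pre 4. Deviations of onset libraries correlated with same-numbered ones at -0.06 to -0.01 for naive and at -0.39 to 0.25 for pre. Whether onset numbers pair with the others was not tested. The lone peak library limits precision, with a median SE of 0.187 against 0.123 for 4 against 4.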

Other observations

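The ribosomal RNAs encoded in mitochondrial DNA are the transcripts of that genome among the symbols used. They varied far more than the summed level of the 79 tested nuclear members, and a sum evens out the spread of single genes. mt-Rnr2 had 683, 857, 2155 and 3781 CPM in naive, 1295, 1616, 2000 and 1722 CPM in pre, 1035, 946, 1336 and 770 CPM at onset and 1162 CPM in the peak library. mt-Rnr1 had 97.8 to 1011 CPM in naive, 305 to 575 CPM in pre, 131 to 278 CPM at onset and 254 CPM in the peak library. While naive 5 stood far above naive 1 in mt-Rnr2, the sums of the nuclear members in these libraries lay between 4721 and 5364 CPM. The naive groups of these RNAs overlap all other groups. For mt-Rnr1 every onset library lay below every pre library (all genes 2.48%), while for mt-Rnr2 onset and pre overlapped.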
